A study of Mus musculus with 4 samples.

Results

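The adherens junction genes described here are 10 genes chosen by name: the cadherins Cdh1, Cdh2, Cdh3 and Cdh13, the α-catenins Ctnna1 and Ctnna2, the p120-family catenins Ctnnd1 and Ctnnd2, the nectin Nectin1 and the afadin gene Afdn. All 10 were found among the 24453 gene symbols of the count tables, and 8 of the 10 had enough reads for the main test. RNA was sequenced from newborn (postnatal day 0) mouse back-skin epidermis, as 2 libraries of the genotype Ring1a-/- Ring1b-/I53A (called I53A) and 2 control libraries (called CTL). The I53A mice lack Ring1a and carry, over a Ring1b allele marked as absent, a Ring1b allele with the I53A substitution. The labels give the control genotype only as "Control" and name neither its alleles, nor the number of animals per library, nor their litters. In all 4 libraries the cells had been sorted for EpCAM, for Sca1 and for high α6-integrin, a gate meant to collect epidermis between the hair follicles. The study asks what PRC1, a Polycomb complex whose Ring1a or Ring1b subunit attaches ubiquitin to histone H2A, does in the skin epithelium.

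Adherens junctions hold epithelial cells together. Classical cadherins bind the same cadherin on the neighbouring cell, and their cytoplasmic tails bind a p120-family catenin near the membrane and β-catenin or plakoglobin further along. α-catenin links that complex to actin. Nectins form a parallel adhesion system whose tails bind afadin, which also binds actin. In mouse epidermis E-cadherin (Cdh1) is made in all living layers, and P-cadherin (Cdh3) mainly in basal cells and in the hair follicle.

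No tested cadherin, catenin or nectin among the 10 passed the test between I53A and CTL epidermis, with folds from 0.95 (Ctnna1) to 1.62 (Ctnnd2), while Afdn rose 1.49-fold. Of the 8 tested genes, 1 was called higher and 0 lower by edgeR's quasi-likelihood test, where a call is a p under 0.05 after Benjamini-Hochberg adjustment over the 14550 genes tested. Of all those genes 5.68% were called higher and 1.04% lower, 6.71% in all, and 1 call among 8 genes is too few to read against these shares. At an unadjusted p under 0.05 the count was also 1 higher and 0 lower, beside 13% and 5.69% of all genes. DESeq2, which tested all 10 genes, gave 1 and 0, beside 6.31% and 1.46%. With limma-voom the counts were 1 and 0, beside 4.8% and 0.935%. The median log2 fold change of the 8 genes was 0.07, against -0.01 over all tested genes. Outside these 10, 6 of 43 tested adherens junction genes rose, beside 5.68% of all tested genes. The 6 were the nectin-like genes Cadm1 and Cadm4, the receptor phosphatase genes Ptprm and Ptprk, Shroom3 and the vinculin gene Vcl. Grhl1 and Grhl3, which encode grainyhead factors of epithelial cells, also rose.

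The library totals ranged from 15505018 to 21543385 counts. Ring1, the gene of Ring1a, had 2.54 and 2.91 CPM (read counts scaled to library size) in I53A replicates 1 and 2, against 24.2 and 33.3 CPM in CTL replicates 1 and 2. Rnf2, the gene of Ring1b, had 58.8 and 59.1 CPM in I53A, against 58.5 and 45.8 CPM in CTL replicates 1 and 2, and counts per gene do not read the I53A substitution. I53A replicate 1 was a male library by its reads (1868 counts of Ddx3y and 173 of Xist), whereas the other 3 had 121977 to 136092 counts of Xist and at most 2 of Ddx3y. Keratinocyte identity was clear in all libraries, with Krt5, named after its values were seen, between 11500 and 21220 CPM. The gate markers were present in each, Epcam at 133 and 159 CPM in I53A against 107 and 85.9 CPM in CTL, Ly6a (Sca1) at 18.6 and 16.4 CPM in I53A against 17.1 and 22.7 CPM in CTL, and Itga6 at 1006 and 784 CPM in I53A against 980.0 and 928 CPM in CTL, with none called by edgeR (Epcam adjusted p = 0.0635, unadjusted p under 0.05 for Epcam alone, also called by DESeq2). Bulk RNA does not separate fewer cells of a type from less RNA per cell, and this holds for every level below.

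Some markers of several cell types differed between the same libraries. As background, edgeR called 5.68% of all tested genes higher and 1.04% lower, DESeq2 6.31% and 1.46%, and limma-voom 4.8% and 0.935%. At an unadjusted p under 0.05 the shares were 13% and 5.69%. A single call in a short marker list is too few to read against these shares. Of 10 fibroblast markers, all tested, 3 were called higher (Dcn, Fbn1 and Thy1) and 7 were higher at an unadjusted p under 0.05, and their summed level was 2078 to 2286 CPM in I53A and 1464 to 1535 CPM in CTL libraries. Of 6 basal keratinocyte markers Krt15 was lower with edgeR and the other 5 did not pass, while DESeq2 and limma-voom also called Krt5 and Krt14 lower, with sums of 20130 to 22700 CPM in I53A and 29300 to 32920 CPM in CTL libraries. Of 7 markers of hair follicle placode and bud tested with edgeR, Lhx2 was higher (907 to 941 CPM summed in I53A, 629 to 645 CPM in CTL). DESeq2 called 4 higher (Krt17, Lgr5, Lhx2 and Sox9) and 1 lower (Dkk4, not tested with edgeR). The summed level of the Merkel markers was 24.2 to 27.0 CPM in I53A and 9.48 to 17.7 CPM in CTL libraries. Of 4 tested Merkel markers Piezo2 was higher (23.7 and 18.4 CPM in I53A, 8.39 and 6.96 CPM in CTL). The other 3 tested were not called and did not share a direction, with Atoh1 at 13 and 15 counts in I53A against 2 and 0 counts in CTL, Krt8 at 3 and 15 counts in I53A against 60 and 20 counts in CTL, and Krt18 at 12 and 88 counts in I53A against 90 and 18 counts in CTL. The 3 untested Merkel markers lay in the direction of Piezo2, at low counts. Krt20 had 5 and 1 counts in I53A against 0 and 0 in CTL, Isl1 18 and 8 against 4 and 0, and Sox2 1 and 5 against 0 and 0. Of 6 tested Schwann and nerve markers Mbp was higher (31.2 and 35.8 CPM in I53A, 18.3 and 12.3 CPM in CTL). The summed level of the Schwann and nerve markers was 108 to 117 CPM in I53A and 99.9 to 112 CPM in CTL libraries. Most of that sum was Erbb3, named after its values were seen and not called. It had 79.08 and 62.05 CPM in I53A against 90.66 and 76.07 CPM in CTL. No melanocyte, endothelial or immune marker was called by edgeR or limma-voom. With edgeR 5 of 8 melanocyte, 7 of 7 endothelial and 3 of 6 immune markers were tested. An unadjusted p under 0.05 was seen for 1 melanocyte marker (Mitf, higher), 0 endothelial markers and 1 immune marker (Ptprc, higher and called by DESeq2). These were named after their values were seen, as were the uncalled Merkel and the further follicle markers. The summed levels were 27.1 to 30.3 CPM in I53A and 20.6 to 27.8 CPM in CTL libraries for melanocytes, 24.8 to 34.2 CPM in I53A and 13.8 to 36.1 CPM in CTL for endothelium, and 128.5 to 309.5 CPM in I53A and 135.9 to 283.2 CPM in CTL for immune cells. Cd3g was at 0 counts in every library. The part of these cells in the changes below was not tested.

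Promoter sequences from the RefSeq table (GRCm38.p6) were read for 4 of the 10 genes. They were windows of 250 bases before to 50 after a transcription start. That a gene was not read here does not show that RefSeq lacks a promoter for it. Variant PRC1 complexes are known to be recruited to CG-rich promoters, so the windows are shown with each CG dinucleotide in capitals, for the gene that was called (Afdn, plus strand, chr17:13760291-13760590), for an abundant catenin (Ctnnd1, minus strand, chr2:84658928-84659227, the upstream of its listed starts, outside the GENCODE span of the gene given below) and for a nearly silent one (Ctnna2, minus strand, chr6:77979618-77979917).
Afdn: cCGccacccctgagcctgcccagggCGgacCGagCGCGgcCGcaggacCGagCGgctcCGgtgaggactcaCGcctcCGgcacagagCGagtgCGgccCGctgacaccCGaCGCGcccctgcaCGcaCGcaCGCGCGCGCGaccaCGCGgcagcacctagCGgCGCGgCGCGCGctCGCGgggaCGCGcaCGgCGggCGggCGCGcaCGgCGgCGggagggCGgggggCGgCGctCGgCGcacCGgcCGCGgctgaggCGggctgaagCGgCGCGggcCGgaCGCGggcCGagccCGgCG
Ctnnd1: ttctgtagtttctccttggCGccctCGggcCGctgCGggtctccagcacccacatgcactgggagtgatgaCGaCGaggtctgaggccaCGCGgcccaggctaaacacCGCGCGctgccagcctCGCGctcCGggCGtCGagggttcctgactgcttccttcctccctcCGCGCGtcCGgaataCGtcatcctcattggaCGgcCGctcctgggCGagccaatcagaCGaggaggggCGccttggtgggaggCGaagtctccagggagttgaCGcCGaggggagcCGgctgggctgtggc
Ctnna2: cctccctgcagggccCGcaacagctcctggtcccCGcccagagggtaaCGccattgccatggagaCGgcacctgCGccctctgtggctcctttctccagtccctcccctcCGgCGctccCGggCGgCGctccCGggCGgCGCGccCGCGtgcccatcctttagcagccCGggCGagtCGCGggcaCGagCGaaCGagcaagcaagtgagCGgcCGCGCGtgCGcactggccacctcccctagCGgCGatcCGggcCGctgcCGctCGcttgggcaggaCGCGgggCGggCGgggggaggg
CG reads the same on both strands and was counted once. The Afdn window held 62 CG, a number reached by 0.0487% of the 32851 promoters in the table, whose median was 7. The Ctnna2 window held 38 (reached by 4.95% of promoters), the Ctnnd1 window 30 (11.7%), a window at another Ctnnd1 start 3 (76.7%), and the Ctnnd2 window 28 (14.2%). Number of CG and level did not follow the same order, since the nearly silent Ctnna2 had more CG than the abundant Ctnnd1. Of the other called genes, Ptprm had 43 CG, Cadm4 40, Ptprk 38 and Vcl 30, Grhl1 had 35 and 0 at its listed starts, Shroom3 12 and 37, and Grhl3 12. These counts describe the letters of the windows and say nothing on whether PRC1 was bound there.

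Per length, Cdh1 was the most abundant of the 10 genes in both groups. Its level was 326 CPM per kilobase of exon in I53A and 279 in CTL libraries (means), followed by Ctnnd1 at 118 in I53A and 112 in CTL, Cdh3 at 68.4 in I53A and 65.4 in CTL, and Ctnna1 at 60.0 in I53A and 63.2 in CTL. The libraries of Cdh3 and Ctnna1 overlapped within each group, so the order of these neighbours was not resolved. Afdn followed at 25.9 CPM per kilobase in I53A and 17.4 in CTL, Nectin1 at 17.0 in I53A and 16.6 in CTL, and Cdh13 at 11.2 in I53A and 10.8 in CTL. Afdn lay above Nectin1 in both I53A libraries (25.4 and 26.3, against 20.98 and 13.02 for Nectin1), while in the CTL libraries the levels of these genes overlapped (18.6 and 16.1 for Afdn, against 15.3 and 17.9 for Nectin1). Ctnnd2 was lower still, at 1.61 CPM per kilobase in I53A and 1.01 in CTL, and Cdh2 and Ctnna2 had under 0.1 in every library. These levels rest on the summed length of all annotated exons, from 4384 bases for Cdh3 to 11233 for Cdh13, and transcripts that use fewer exons would read lower than they are.

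**Figure D1:**
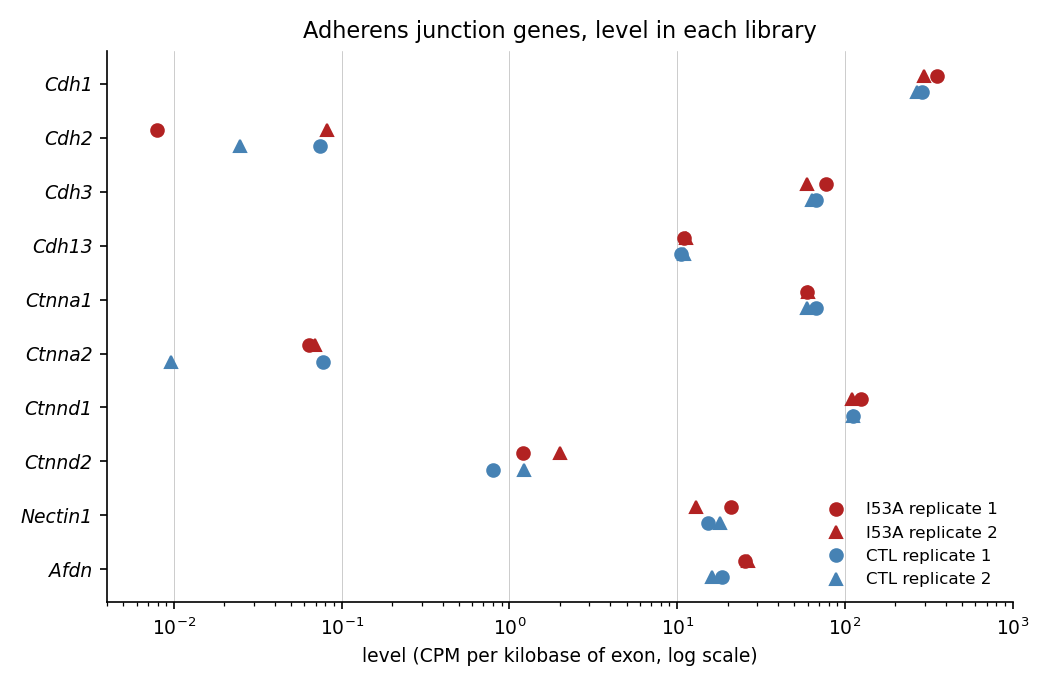
Level of each of the 10 genes in each library, as CPM per kilobase of exon on a log axis; red symbols are I53A and blue symbols CTL libraries, circles replicate 1 and triangles replicate 2. Cdh1 lies highest, at 298 to 355 in I53A and 269 to 288 in CTL libraries, and Cdh2 and Ctnna2 lie under 0.1 in all 4.

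Cdh1, on chromosome 8 from 106603351 to 106670246 (plus strand, GRCm38), encodes E-cadherin. Its level was 1624 and 1361 CPM in I53A replicates 1 and 2, against 1317 and 1232 CPM in CTL replicates 1 and 2. Both I53A libraries lay above both CTL libraries, with the gap carried mostly by I53A replicate 1. The means were 1493 ± 187 CPM in I53A and 1274 ± 59.7 CPM in CTL (SD, n = 2 each), a log2 fold change of 0.23 ± 0.15 (SE; 95% interval -0.11 to 0.56; adjusted p = 0.491, edgeR), which did not pass the test. The interval corresponds to folds from 0.929 to 1.48.

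Cdh3, which encodes P-cadherin, lies next to Cdh1 on chromosome 8, from 106510891 to 106557297 on the same strand. It had 337 and 262 CPM in I53A replicates 1 and 2, against 295 and 278 CPM in CTL replicates 1 and 2. The I53A values stood on either side of the CTL values, so the groups overlapped. The log2 fold change was 0.06 ± 0.15 (SE; interval -0.28 to 0.41; adjusted p = 0.897), and it was -0.12 without I53A replicate 1. The share of Cdh1 in the summed per-kilobase level of Cdh1, Cdh2 and Cdh3 was 82.2% and 83.3% in I53A replicates 1 and 2 and 81.0% and 80.9% in CTL replicates 1 and 2, that of Cdh3 was 17.8% and 16.7% in I53A and 19.0% and 19.1% in CTL, and that of Cdh2 was at most 0.0229%. The ratio of Cdh1 to Cdh3, which does not depend on the library scaling, was 4.61 and 4.98 in I53A against 4.27 and 4.24 in CTL. Those groups did not overlap, but an exact two-sided permutation test of 2 against 2 libraries cannot go below p = 0.333.

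Cdh2, the N-cadherin gene of neural, muscle and mesenchymal cells (chromosome 18, 16588877 to 16809246, minus strand), was too low to be tested with edgeR and was not called by DESeq2. It had 1 and 15 counts in I53A replicates 1 and 2, against 10 and 3 counts in CTL replicates 1 and 2. In CPM these were 0.0636 (exact Poisson 95% interval 0.00161 to 0.354) and 0.661 (0.370 to 1.09) in I53A, against 0.595 (0.285 to 1.09) and 0.199 (0.0410 to 0.581) in CTL. Libraries of the same genotype differed as much as the groups did, and no difference between groups was detectable at this depth. Such intervals cover counting error only, since the reads carry no molecular identifiers.

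Cdh13, on chromosome 8 from 118283733 to 119324921 (plus strand), encodes T-cadherin, which is held to the membrane by a lipid anchor and lacks the catenin-binding tail. It varied least of the 10 genes among libraries, with 124 and 128 CPM in I53A replicates 1 and 2 and 118.5 and 123.5 CPM in CTL replicates 1 and 2. The log2 fold change was 0.05 ± 0.14 (SE; interval -0.25 to 0.36; adjusted p = 0.899), and its sign held in all 14 alternatives run.

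Among the catenins of the cadherin tail, Ctnnd1 (chromosome 2, 84600071 to 84650765, minus strand) encodes p120-catenin, which keeps cadherins at the cell surface. It had 919 and 811 CPM in I53A replicates 1 and 2, against 814 and 824 CPM in CTL replicates 1 and 2. The groups overlapped, and the log2 fold change was 0.08 ± 0.14 (SE; interval -0.23 to 0.39; adjusted p = 0.841) and -0.0072 without I53A replicate 1. The annotated gene Gm28635, which the count tables do not list, shares 61.2% of the Ctnnd1 exon bases on the same strand, so how such reads were assigned is not known. The ratio of Ctnnd1 to Cdh1 per kilobase was 0.354 and 0.373 in I53A against 0.386 and 0.418 in CTL, again without overlap and with the same limit on p.

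Ctnnd2, the δ-catenin gene (chromosome 15, 30172593 to 31029341, plus strand), belongs to the p120 family and is best known from neurons. It had 12.5 and 20.7 CPM in I53A replicates 1 and 2, from 196 and 470 counts, against 8.27 and 12.6 CPM in CTL replicates 1 and 2, from 139 and 190 counts. I53A replicate 1 lay just under CTL replicate 2, so the groups overlapped. The log2 fold change of 0.70 ± 0.32 (SE; interval -0.02 to 1.42; adjusted p = 0.284) was the largest among the 8 genes but did not pass the test. Without I53A replicate 1 it was 1.01 and passed (adjusted p = 0.0348), and without I53A replicate 2 it was 0.27 (adjusted p = 0.697). Ctnnd1 reads per kilobase outnumbered those of Ctnnd2 104 and 55.2 times in I53A, against 139 and 92.2 times in CTL.

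Ctnna1 (chromosome 18, 35118859 to 35254779, plus strand) encodes αE-catenin, the link from the cadherin complex to actin in epithelia. It had 383.5 and 387 CPM in I53A replicates 1 and 2, against 432 and 380 CPM in CTL replicates 1 and 2. The I53A libraries lay between the CTL libraries, and the log2 fold change was -0.07 ± 0.14 (SE; interval -0.38 to 0.23; adjusted p = 0.849). It was 0.022 without CTL replicate 1. Ctnna2, the neuronal αN-catenin gene (chromosome 6, 76881637 to 77979699, minus strand), was not tested with edgeR and not called by DESeq2. Its counts were 7 and 11 in I53A replicates 1 and 2, against 9 and 1 in CTL replicates 1 and 2. In CPM these were 0.445 (exact Poisson 95% interval 0.179 to 0.918) and 0.485 (0.242 to 0.867) in I53A, against 0.536 (0.245 to 1.02) and 0.0663 (0.00168 to 0.369) in CTL. CTL replicate 2 was low and CTL replicate 1 lay with the I53A libraries, so no group difference was detectable.

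In the nectin system, Nectin1 (chromosome 9, 43743984 to 43807461, plus strand) encodes an adhesion receptor that binds afadin. It had 119 and 73.6 CPM in I53A replicates 1 and 2, against 86.5 and 101 CPM in CTL replicates 1 and 2. The I53A libraries were the highest and the lowest of the 4, and the log2 fold change was 0.03 ± 0.21 (SE; interval -0.45 to 0.51; adjusted p = 0.971). Its sign turned in 6 of the 14 alternatives, and the value was -0.34 without I53A replicate 1 and 0.34 without I53A replicate 2.

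Afdn (chromosome 17, 13760539 to 13906150, plus strand) was the gene that rose. It had 260 and 269 CPM in I53A replicates 1 and 2, from 4088 and 6105 counts, against 190.5 and 164.5 CPM in CTL replicates 1 and 2, from 3200 and 2483 counts. Both I53A libraries lay above both CTL libraries without overlap, as did Cdh1 and Cdh13, making 3 of the 8 tested genes; of all tested genes 24.5% had I53A above CTL in this way and 23.5% below. The means were 265 ± 6.34 CPM in I53A and 178 ± 18.4 CPM in CTL (SD, n = 2 each), a log2 fold change of 0.58 ± 0.14 (SE; interval 0.26 to 0.89; adjusted p = 0.0357, edgeR quasi-likelihood test), or 1.49-fold (interval 1.201 to 1.85). The call did not hold when either control was left out, though the direction did. Without CTL replicate 1 the log2 fold change was 0.69, and without CTL replicate 2 it was 0.47. With all 4 libraries and loess offsets that remove GC and length trends the log2 fold change was 0.52 and missed the threshold (adjusted p = 0.0519). Of the 8 genes, 0 were called higher without CTL replicate 1 and 0 without CTL replicate 2, where 1.77% and 2.01% of all genes were, 0 with the offsets (5.98%) and 0 against a fold of 1.5 (3.25%). There were 2 without I53A replicate 1 (Afdn and Ctnnd2, 7.71% of all genes) and 1 without I53A replicate 2 (7.77%). An opposite-strand gene, Tcte2, shares 2.16% of the Afdn exon bases. The ratio of Afdn to Nectin1 per kilobase was 1.21 and 2.02 in I53A against 1.22 and 0.897 in CTL, so these groups overlapped.

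**Figure D2:**
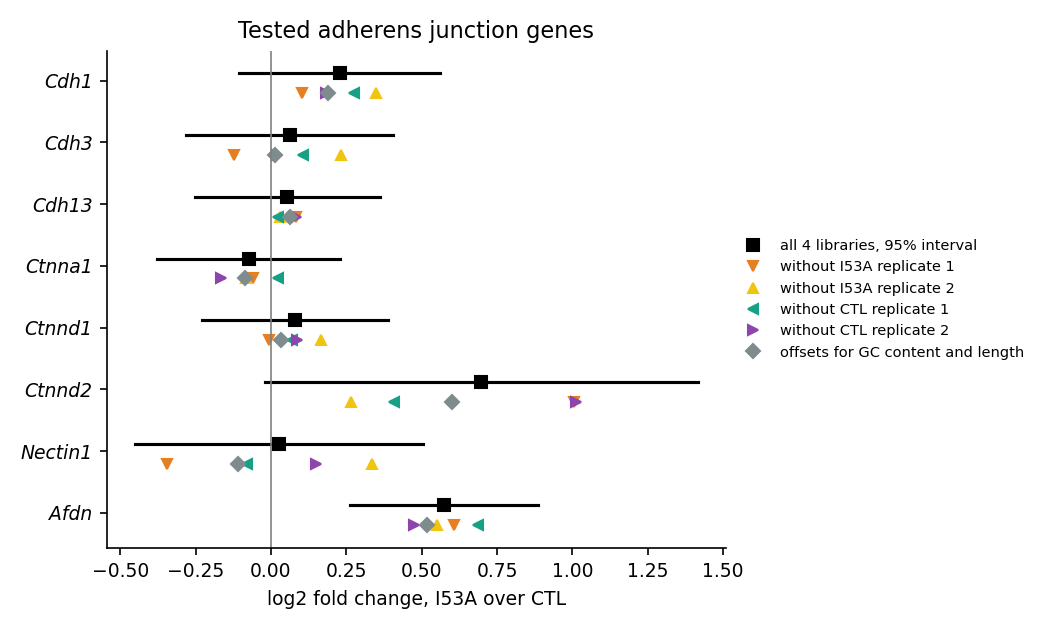
Log2 fold change of I53A over CTL for the 8 tested genes; black squares with 95% intervals come from all 4 libraries, and coloured symbols under them from fits without each library in turn and with offsets for GC content and length. The interval of Afdn, 0.26 to 0.89, lies above 0, and those of the other 7 include 0.

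For the 7 tested genes that were not called, the 95% intervals of the fold had lower bounds from 0.732 (Nectin1) to 0.987 (Ctnnd2) and upper bounds from 1.17 (Ctnna1) to 2.67 (Ctnnd2). These intervals are not adjusted for the number of genes. A p above the threshold does not show that the levels were equal.

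Other parts of the junction were read from a list of 57 further adherens junction genes, of which 43 were tested, 6 rose, 0 fell and 37 did not pass (edgeR; at an unadjusted p under 0.05, 12 were higher and 1, Pard3, named after its values were seen, lower; DESeq2 called 7 higher and 0 lower, limma-voom 6 and 0). The median log2 fold change was 0.19, against -0.01 over all tested genes. Of all tested genes 5.68% were called higher and 1.04% lower by edgeR, and 13% and 5.69% at an unadjusted p under 0.05. DESeq2 called 6.31% higher and 1.46% lower, and limma-voom 4.8% and 0.935%.

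The other cadherins and catenins held no gene that passed the test. Of 18 further cadherins 13 were not tested, with at most 7 counts in any library, and of 5 tested none was called by edgeR, DESeq2 or limma-voom (1, Cdh4, had an unadjusted p under 0.05). Cdh4, the R-cadherin gene, had 27.1 and 18.2 CPM in I53A against 15.9 and 12.4 CPM in CTL libraries (log2 fold change 0.66 ± 0.27, adjusted p = 0.212), and Cdh24 had 15.8 and 15.3 CPM in I53A against 22.7 and 16.6 CPM in CTL libraries (-0.34 ± 0.24, adjusted p = 0.529). Of 4 tested catenins none was called by edgeR, DESeq2 or limma-voom, and none had an unadjusted p under 0.05. Ctnnb1, the β-catenin gene, averaged 922 ± 16.3 CPM in I53A and 887 ± 99.4 CPM in CTL (SD, n = 2 each; log2 fold change 0.06, interval -0.26 to 0.37), and Jup, the plakoglobin gene, 1128 ± 174 CPM in I53A and 1043 ± 6.23 CPM in CTL (0.11, interval -0.22 to 0.45).

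Nectins and nectin-like receptors included 2 genes that rose among 8 tested, beside 5.68% of all tested genes, and 7 of the 8 had both I53A libraries above both CTL libraries, beside 24.5% of all. Cadm4, which encodes a nectin-like adhesion molecule, had 4.71 and 4.98 CPM in I53A replicates 1 and 2, from 74 and 113 counts, against 0.298 and 0.464 CPM in CTL replicates 1 and 2, from 5 and 7 counts (log2 fold change 3.67 ± 0.61, SE; adjusted p = 0.00490). Cadm1, a nectin-like adhesion molecule of epithelia and neurons, had 86.3 and 56.3 CPM in I53A, against 36.7 and 36.5 CPM in CTL (0.96 ± 0.21, adjusted p = 0.0227). Neither call held without CTL replicate 1 (adjusted p = 0.0892 for Cadm4 and 0.218 for Cadm1) or without CTL replicate 2 (0.0590 and 0.213). Nectin3 had 46.6 and 59.4 CPM in I53A, against 36.3 and 33.8 CPM in CTL (0.60 ± 0.18, adjusted p = 0.0898), and was not called. Cadm3, named after its values were seen, had 5.03 and 5.82 CPM in I53A, against 0.714 and 2.25 CPM in CTL, and was called by DESeq2 but not by edgeR (adjusted p = 0.0592).

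Actin linkers and junction regulators included 4 genes that rose among 26 tested, beside 5.68% of all tested genes. Without overlap, 9 of the 26 had I53A above CTL and 4 below, beside 24.5% and 23.5% of all tested genes. Ptprm encodes a receptor tyrosine phosphatase that binds itself between cells, and had 25.5 and 23.8 CPM in I53A replicates 1 and 2, against 4.05 and 5.10 CPM in CTL replicates 1 and 2. The I53A libraries were close to each other and well above the controls (log2 fold change 2.43 ± 0.27, SE; adjusted p = 0.000628), and the call held without each library in turn (adjusted p at most 0.0252). Ptprk, a related phosphatase, had 77.8 and 110 CPM in I53A, against 55.9 and 45.9 CPM in CTL (0.89 ± 0.20, adjusted p = 0.0231). Shroom3, which directs apical constriction, had 62.3 and 84.2 CPM in I53A, against 42.4 and 41.4 CPM in CTL (0.81 ± 0.18, adjusted p = 0.0254). An opposite-strand gene, 4932430I15Rik, shares 24.9% of the Shroom3 exon bases. Vcl, the vinculin gene, had 212 and 248 CPM in I53A, against 148.5 and 162 CPM in CTL (0.57 ± 0.14, adjusted p = 0.0438), and the opposite-strand gene Ap3m1 shares 25.5% of its exon bases, with the strand setting of the counting not known.

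Several of these calls did not hold when a library was left out, though the fold changes kept their direction. With CTL replicate 1 or CTL replicate 2 left out, the log2 fold change was 1.03 or 0.75 for Ptprk. It was 0.82 or 0.79 for Shroom3, and 0.51 or 0.63 for Vcl. Calls over all genes were also fewer without a CTL library, as described at the end. Without CTL replicate 1 and without CTL replicate 2 the adjusted p was 0.130 and 0.296 for Ptprk, 0.239 and 0.257 for Shroom3, and 0.422 and 0.266 for Vcl. Without I53A replicate 2 it was 0.0515 for Shroom3 and 0.0532 for Vcl. Shroom3 also missed the threshold with offsets for GC content and length (0.0593), and Vcl with edgeR's earlier quasi-likelihood fit (0.0508). The genes of this list with the highest CPM over all 4 libraries were Enah, an actin regulator, at 683 ± 24.4 CPM in I53A and 691 ± 43.1 CPM in CTL, and Actn4, an α-actinin, at 629 ± 37.7 CPM in I53A and 653 ± 77.3 CPM in CTL (SD, n = 2 each), neither of them called. Ptprf, named after its values were seen, was close behind at 599 ± 106 CPM in I53A and 682 ± 8.37 CPM in CTL, above Actn4 in the CTL mean.

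**Figure D3:**
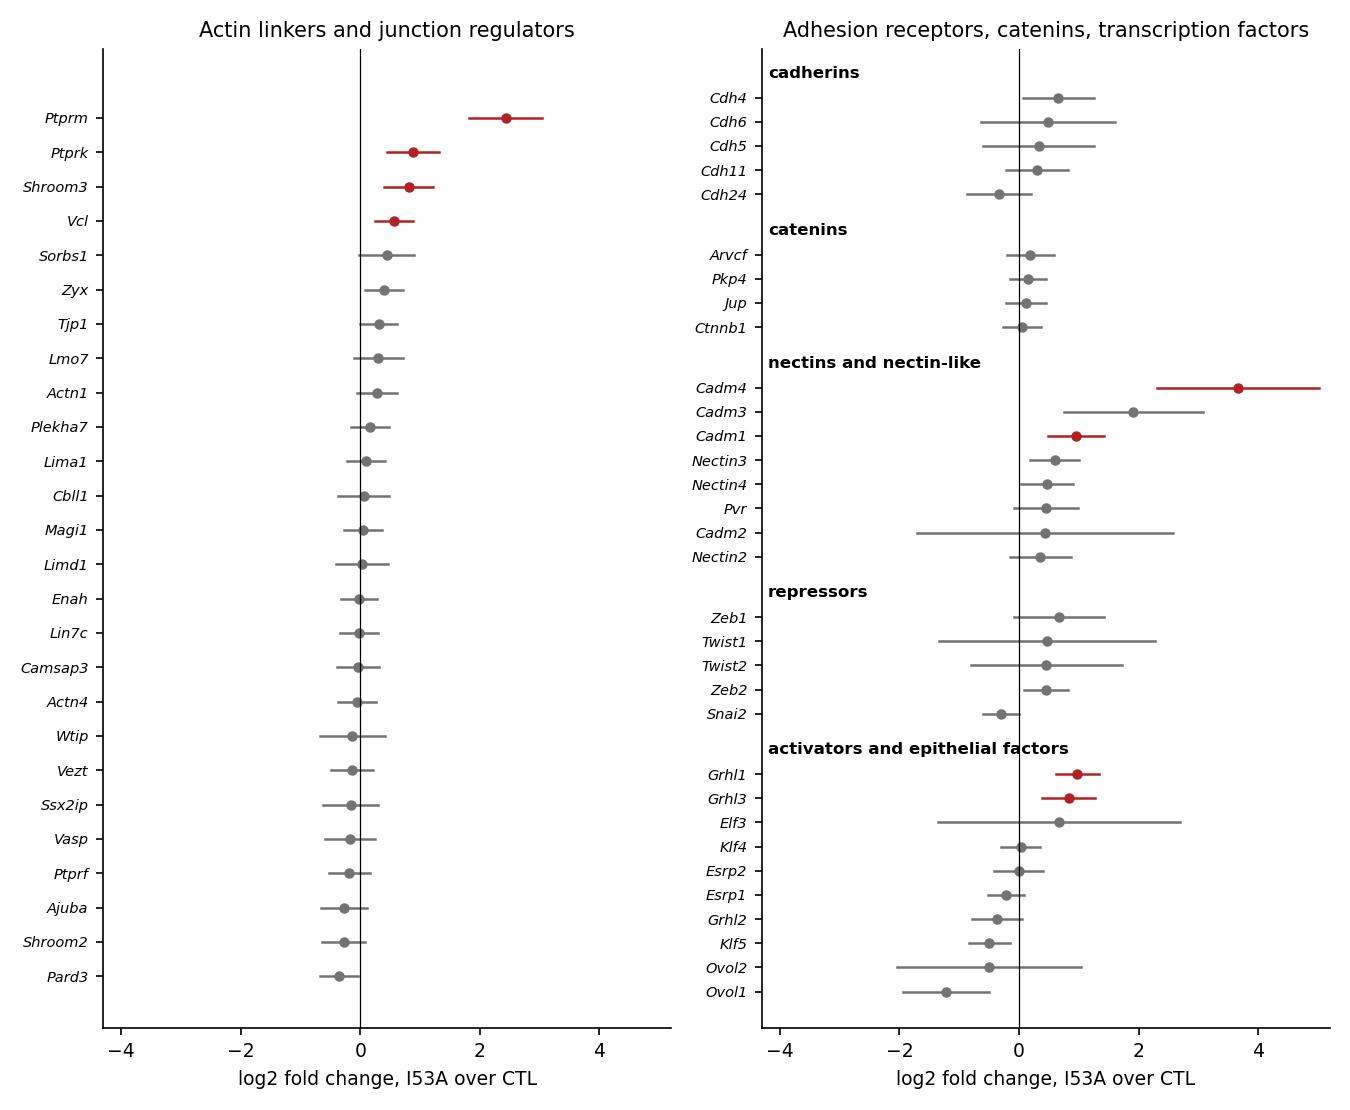
Log2 fold change of I53A over CTL with 95% intervals for the tested genes of the further adherens junction list and of the transcription factor list; red marks genes that passed the test and grey those that did not. Cadm4 (3.67) and Ptprm (2.43) lie farthest to the right.

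Transcription factors known to act on E-cadherin and other epithelial genes were listed separately. With the splicing regulators Esrp1 and Esrp2, this transcription factor list held 16 genes, 15 of them tested. Of these 2 rose and 0 fell with edgeR, while at an unadjusted p under 0.05 3 were higher and 2 lower, and DESeq2 called 2 higher and 2 lower, limma-voom 2 and 0. The median log2 fold change was 0.03. Over all tested genes the shares higher and lower were 5.68% and 1.04% with edgeR, and 13% and 5.69% at an unadjusted p under 0.05. With DESeq2 they were 6.31% and 1.46%, and with limma-voom 4.8% and 0.935%. The calls among 15 factors are too few to read against these shares. The repressors held no called gene with edgeR, DESeq2 or limma-voom, and 1 (Zeb2) with an unadjusted p under 0.05. Snai2, a repressor known from basal keratinocytes, averaged 217 ± 8.48 CPM in I53A and 267 ± 23.6 CPM in CTL (SD, n = 2 each), a log2 fold change of -0.30 ± 0.14 that missed the threshold (adjusted p = 0.281). Zeb2 had 62.9 and 55.9 CPM in I53A, against 44.5 and 42.3 CPM in CTL libraries (0.45 ± 0.16, adjusted p = 0.157). Snai1 had 3 and 3 counts in I53A and 2 and 2 in CTL libraries and was not tested.

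Among 10 epithelial factors, Grhl1 had 66.5 and 71.1 CPM in I53A, against 34.9 and 35.2 CPM in CTL libraries (log2 fold change 0.97 ± 0.16, SE; adjusted p = 0.00490). Grhl3, which acts in barrier formation, had 90.4 and 119.5 CPM in I53A, against 68.4 and 49.8 CPM in CTL libraries (0.83 ± 0.20, adjusted p = 0.0333). Without CTL replicate 1 the adjusted p was 0.106 for Grhl1 and 0.0920 for Grhl3, and without CTL replicate 2 it was 0.0947 and 0.380. Grhl2, named after its values were seen and known to act on Cdh1, had 132 and 195 CPM in I53A, against 222 and 201 CPM in CTL libraries (-0.37 ± 0.19, adjusted p = 0.335). Klf5 had 624 and 612.5 CPM in I53A, against 762 and 983 CPM in CTL libraries (-0.50 ± 0.16, adjusted p = 0.0984), and Klf4 492 and 413 CPM in I53A, against 469 and 418 CPM in CTL libraries (0.03 ± 0.15, adjusted p = 0.952). Ovol1, named after its values were seen, had 13.9 and 26.5 CPM in I53A, against 61.0 and 34.3 CPM in CTL libraries (-1.22 ± 0.33, adjusted p = 0.0545). DESeq2 called Klf5 and Ovol1 lower.

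**Figure D4:**
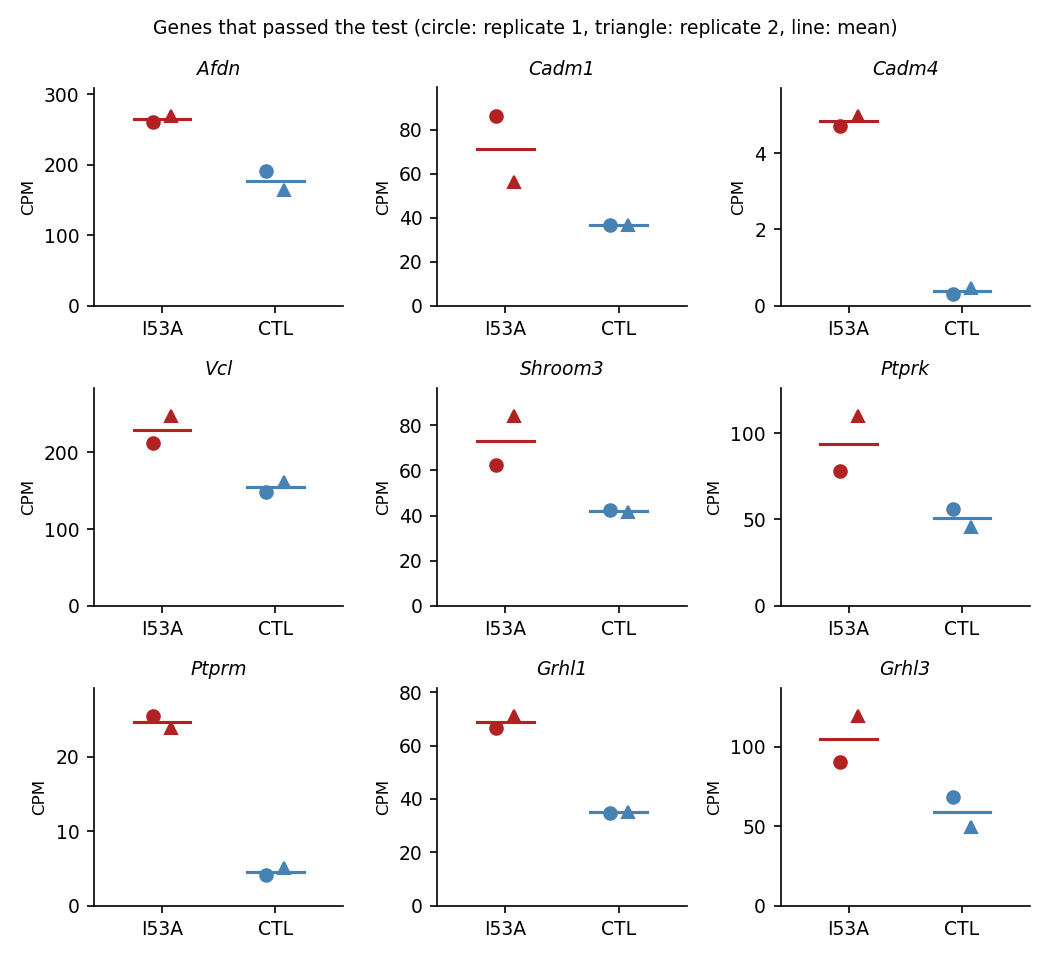
CPM of the 9 junction genes and factors that passed the test, on linear axes from 0; red symbols are I53A and blue symbols CTL libraries, circles replicate 1, triangles replicate 2 and lines the mean of 2 libraries. In each panel both I53A libraries lie above both CTL libraries, as the test selects.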

How the data were processed

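RNA of sorted epidermal cells from the 2 I53A and 2 CTL samples was reverse transcribed (10 ng), amplified and read as single reads of 100 nucleotides, per the labels' protocols. Tools listed in the submitters' processing notes, with no role or order, are DESeq2 1.6.3, HTSeq 0.6.1, Cufflinks 2.2.1 and TopHat2 2.0.13, with the build mm10. Which of them made the counts, with what annotation and strand setting, is not given in the sources used here. For each library the authors deposited a table of read counts, whole numbers that are not normalized, by gene symbol.

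Genes were filtered with filterByExpr (minimum count 10, minimum total 15), leaving 14550, scaled with TMM (factors 0.974 to 1.05) and compared with edgeR 4.0.16 in R 4.3.3 (glmQLFit, legacy = FALSE, and glmQLFTest, no block, two-sided). P-values were adjusted by Benjamini-Hochberg over all tested genes. Log2 fold changes are I53A over CTL, SEs come from the coefficient and its F statistic, and intervals are 95%. CPM are counts over TMM-scaled library sizes. Coordinates, exon lengths and GC content came from GENCODE M21 (GRCm38, the assembly of mm10) and promoters from RefSeq. The fit was tested on simulated data.

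Replicates differed by more than counting noise (chi-square per degree of freedom 41.8 for I53A and 13.1 for CTL), so each counted as 1 sample. The labels do not say whether replicates were separate animals. By the sex of their reads the I53A libraries came from different animals, while for the CTL libraries this is not known. P-values therefore measure the spread between these libraries. The members and lists were chosen with earlier results of these data known. Named were the 10 genes, Ring1 and Rnf2, called genes of each list (up to 8), the 2 of highest mean CPM in each sub-list, gate markers and called markers. Alternatives were upper-quartile and RLE scaling, no filter or a CPM filter, limma-voom in limma 3.58.1, DESeq2 1.42.0, leaving out each library, the replicate number as a block, loess offsets (span 0.5) for GC content and length, glmTreat at 1.5-fold and, chosen after seeing the data, edgeR's earlier fit. Trdc, of the immune list, was not analysed here.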

Additional observations from a re-analysis of the deposited data

How the results depend on the processing

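Of the 10 adherens junction genes, Afdn kept its direction in all 14 alternatives that give a fold change and its call in 11. The number of these genes called higher was 0 with offsets for GC content and length, 0 with glmTreat at a fold change of 1.5, and 0 to 2 when each library was left out in turn. Leaving out each library in turn gave 258 to 1131 genes higher and 34 to 389 lower over the whole table, 1 to 8 higher and 0 to 1 (Ajuba, named after its values were seen) lower among the further adherens junction genes, and 0 to 2 higher and 0 to 2 lower among the transcription factors. Over the whole table the smaller counts came without a CTL library and the larger ones without an I53A library, and a lone library is taken to vary as the remaining pair does. The log2 fold change then ranged from -0.12 to 0.23 for Cdh3, from -0.16 to 0.022 for Ctnna1, from -0.0072 to 0.17 for Ctnnd1 and from -0.34 to 0.34 for Nectin1. Nectin1 also turned negative with limma-voom (-0.0195), the replicate block (-0.0036), the offsets (-0.11) and both together (-0.13); these values lie near 0 against an SE of 0.21. With glmTreat 473 genes were higher and 50 lower, with 2 further adherens junction genes and 0 factors higher. Of the factors, 2 were lower with DESeq2 and 1 each with RLE scaling, without the low-count filter, with the replicate block, with the offsets and with both. Samples of the 2 groups share only a replicate number, since the labels do not say that it marks a litter or day and the replicate difference correlated at 0.0409 between the groups. With the replicate block 1042 genes were higher and 232 lower, and with the block and the offsets 1222 and 392, with Afdn called in both. At this depth the 3-count floor was 0.132 to 0.199 CPM per library, so differences in Cdh2 and Ctnna2 could not be resolved. The causes of these shifts were not tested.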
